A study of Mus musculus with 20 samples.

Results

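The comparison described here was between the soleus and the gastrocnemius of male ICR mice, 6 months old, whose hindlimbs had been unloaded by suspension for 24 hr. It used 10 of the 20 arrays of the series, the 5 soleus and the 5 gastrocnemius samples of the suspended animals, which were chosen by their sample labels and paired by the animal number that the labels give. The other 10 arrays held both muscles of 5 freely ambulating control mice of the same strain, sex and age, and were used to see whether a muscle difference was also present without suspension. Suspended and control animals were different mice, randomly assigned to their arm, and no transgene or drug was used. Suspension lifts the hindlimbs off the floor by the tail, so that the leg muscles no longer bear weight while the animal still moves and feeds.

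The soleus is a small postural muscle of the calf, and in mice it is built of slow and fast oxidative fibres. The gastrocnemius beside it is a larger muscle made mostly of fast glycolytic fibres. Slow fibres use their own set of myosin, troponin and tropomyosin genes and burn fat in mitochondria, whereas fast glycolytic fibres use glycogen and release lactate. Unloading is known to affect the soleus strongly, because it is active almost all the time that an animal stands.

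Each sample was hybridised to 1 one-colour array. Values are given as levels, meaning log2 of a probe's intensity over the 75th percentile of its own array, or as differences, meaning the soleus level minus the gastrocnemius level of the same animal. A difference of 1 is therefore a 2-fold higher signal in soleus, and a negative difference a lower one. A gene was called when its Benjamini-Hochberg adjusted p from limma, over the 25292 genes tested, was below 0.05. Errors of differences are standard errors from that fit, with 5 animals unless stated. Levels of different genes are not compared, since each probe has its own brightness, and in whole muscle fewer cells of a type and less RNA per cell cannot be told apart.

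The 75th percentile intensity of the 10 arrays was 385 to 736, and 80.8% to 91.8% of probes were well above background. Pairwise correlations within the soleus arrays of suspended animals were 0.971 to 0.985. The slow-fibre genes Tnni1, a troponin, and Myh7, a myosin, were higher in soleus than in gastrocnemius in 5 of 5 suspended animals. That is the direction the muscle labels call for, but such a sign cannot show whether a sample was partly mixed with another muscle. The array labelled soleus of suspended animal 1 stood apart from the other 4 in many fibre genes, and Sln (-0.94) and Csrp3 (-0.10), which were higher in the soleus of the other 4 animals, were not higher in it. Whether that sample held RNA of another muscle was not tested, so results that rest on it are given with and without that animal. None of the 6 slides held both muscles, so slide and muscle cannot be told apart. Scan day could be held constant only for 3 soleus arrays (suspended animals 1 to 3) against 4 gastrocnemius arrays (suspended animals 2 to 5), all scanned on day 2, as an unpaired comparison. The soleus of animal 1 is 1 of these 3. Unless animal 1 is left out, scan day and that array cannot be told apart for a value within scan day 2.

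In suspended animals 7172 of 25292 genes were called, which is 28.4% of those tested. Of these, 3099 were higher in soleus (12.3%) and 4073 were lower (16.1%). Without animal 1 the count was 6673 (26.4%), with 2987 higher (11.8%) and 3686 lower (14.6%). The same direction was called in both fits for 5968 genes, and for 5338 of them the difference had the same sign in all 5 suspended animals. A further 1204 genes were called only with animal 1 and 705 only without it. The count was lower when another animal was left out, at 4447 without animal 2, 4831 without animal 3 and 4700 without animal 4. Within scan day 2 it was 4917, of which 1450 were higher and 3467 lower in soleus. With the soleus of animal 1 left out there, it was 5241, with 1733 higher and 3508 lower. The split of the calls moved with the scaling: with the percentile taken over probes detected on all arrays, 2277 genes were higher and 4826 lower, and with quantile normalization 3979 were higher and 3671 lower. Without animal 1, normexp background correction gave 2913 higher and 2134 lower, and spike-in scaling 1925 higher and 3842 lower. Differences of at least 2-fold were called for 922 genes, 271 higher and 651 lower, and for 1191 genes without animal 1, 388 higher and 803 lower.

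The slow contractile genes were higher in soleus after suspension. Of 15 tested, 12 were called higher and 1 lower in suspended animals, against 12.3% and 16.1% of all genes, and 13 and 1 without animal 1. The list's median difference was 1.56, or 1.90 without animal 1, while the median over all genes was -0.03. In the control animals 12 were also higher and 1 lower, with a median of 1.43.

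Tnni1, the slow skeletal troponin I that holds thin filaments off at rest, had the highest difference among genes called with and without animal 1 and of 1 sign in all 5 animals. Its soleus levels were 4.15, 7.35, 6.75, 7.09 and 6.72 in suspended animals 1 to 5, and its gastrocnemius levels 2.66, 2.85, 3.68, 2.56 and 3.57. Every soleus array lay above every gastrocnemius array, but that of animal 1 lay far below the other 4. The difference was 3.35 ± 0.34 (adjusted p = 0.000154), a 10.2-fold higher signal, and 3.82 ± 0.25 without animal 1. With limma on the suspended arrays alone its error was larger, at 0.41 (adjusted p = 0.00393). In controls it was 3.76, and within scan day 2 it was 2.92.

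Tpm3, the slow-muscle tropomyosin that lies along the thin filament, had soleus levels of 3.46, 5.99, 5.61, 5.91 and 5.45 and gastrocnemius levels of 1.73, 2.08, 2.83, 1.69 and 2.43. All soleus arrays lay above all gastrocnemius arrays. Its difference was 3.14 ± 0.29 (adjusted p = 9.78e-05), 3.49 without animal 1 and 4.04 in controls. The mean over its 2 probes was smaller, at 1.90, because the dimmer probe differed by 0.67.

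The upstream sequences are shown of the first genes at each end of the ranked differences that the RefSeq table holds; Cdh4 and Actn3, which lie between Mss51 and Mstn, are not listed there. They are the 250 bases before the first listed transcription start in RefSeq, on mouse build GRCm38.p6, written 5′ to 3′ on the strand of the gene, and lie outside the transcript. Capitals mark E-boxes (CANNTG), the letters that myogenic bHLH factors recognise. Tnni1 and Tpm3, higher in soleus, have 2 listed starts each, and Mss51 and Mstn, lower in soleus, have 1.
Tnni1, chr1:135799171-135799420, plus strand: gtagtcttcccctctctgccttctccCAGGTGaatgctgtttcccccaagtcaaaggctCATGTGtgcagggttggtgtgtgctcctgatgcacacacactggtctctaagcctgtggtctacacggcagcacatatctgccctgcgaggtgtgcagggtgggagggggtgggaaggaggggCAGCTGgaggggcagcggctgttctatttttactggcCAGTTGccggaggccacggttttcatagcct
Tpm3, chr3:90072401-90072650, plus strand: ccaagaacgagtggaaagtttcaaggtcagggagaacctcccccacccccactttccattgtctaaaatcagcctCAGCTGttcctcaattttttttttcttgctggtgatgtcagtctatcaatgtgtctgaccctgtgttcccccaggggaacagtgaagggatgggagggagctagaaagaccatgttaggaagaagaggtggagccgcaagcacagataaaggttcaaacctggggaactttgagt
Mss51, chr14:20496902-20497151, minus strand: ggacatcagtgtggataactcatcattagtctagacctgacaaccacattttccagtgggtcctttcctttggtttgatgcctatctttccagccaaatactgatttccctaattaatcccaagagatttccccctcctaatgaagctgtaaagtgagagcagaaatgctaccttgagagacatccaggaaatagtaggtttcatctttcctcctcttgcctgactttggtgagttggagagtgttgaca
Mstn, chr1:53061390-53061639, plus strand: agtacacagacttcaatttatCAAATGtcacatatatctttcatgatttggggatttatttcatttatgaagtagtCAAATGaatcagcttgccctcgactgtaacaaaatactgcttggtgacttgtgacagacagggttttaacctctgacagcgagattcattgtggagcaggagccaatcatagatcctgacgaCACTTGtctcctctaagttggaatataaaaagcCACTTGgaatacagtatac
The windows of Tnni1 and Mstn each held 4 E-boxes, that of Tpm3 held 1 and that of Mss51 none. Of the 12 genes with the highest differences 11 had an entry in the table, and an E-box lay in 11 of them. Of the 12 with the lowest differences 10 had an entry, and an E-box lay in 5. An E-box lay in 66.2% of all 32851 promoters listed. The MCAT letters CATTCC, searched on both strands, were in 4 of the 11 and 2 of the 10, against 12.6% of all. A MEF2 site was found in 0 of the 11 and 1 of the 10, against 2.92% of all, and a CArG box in 0 and 0, against 1.47%. Each motif was counted on its own, also where it overlapped another.

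Tnnc1, the troponin C of slow and cardiac muscle that binds calcium, had soleus levels of 4.09, 7.15, 6.90, 7.15 and 6.58 against gastrocnemius levels of 2.94, 3.19, 4.31, 2.90 and 3.84. The groups overlapped only through the soleus of animal 1, which lay below the gastrocnemius of animal 3. The difference was 2.94 ± 0.36 (adjusted p = 0.000327), 3.39 without animal 1 and 3.88 in controls. Tnnt1, the slow troponin T that ties troponin to tropomyosin, differed by 2.14 ± 0.26 and in controls by 2.87. Myl2, the slow regulatory myosin light chain, differed by 2.25 ± 0.34 (2.68 without animal 1), and its soleus level in animal 1, 5.70, lay between the gastrocnemius levels of 5.03 to 5.90.

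Myh7, the slow myosin heavy chain, had soleus levels of 8.58, 9.07, 9.17, 9.16 and 8.91 and gastrocnemius levels of 7.41, 7.40, 7.94, 7.39 and 8.04. No gastrocnemius array reached any soleus array, and the difference was 1.34 ± 0.15 (adjusted p = 0.000219). It was 1.38 without animal 1 and 1.45 in controls. Myh6, the alpha heavy chain of the heart, differed by 2.53 ± 0.37, but it is nearly identical to Myh7 and its probes may read both. Myl3, the essential light chain of slow and cardiac muscle, differed by 0.90 ± 0.15, and its 2 probes gave a mean of 1.87. The exception on the list was Mybph, a myosin binding protein, which was lower in soleus by -1.74 ± 0.38 (adjusted p = 0.00636). That call was lost within scan day 2, at -1.35 (adjusted p = 0.1).

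**Figure D1:**
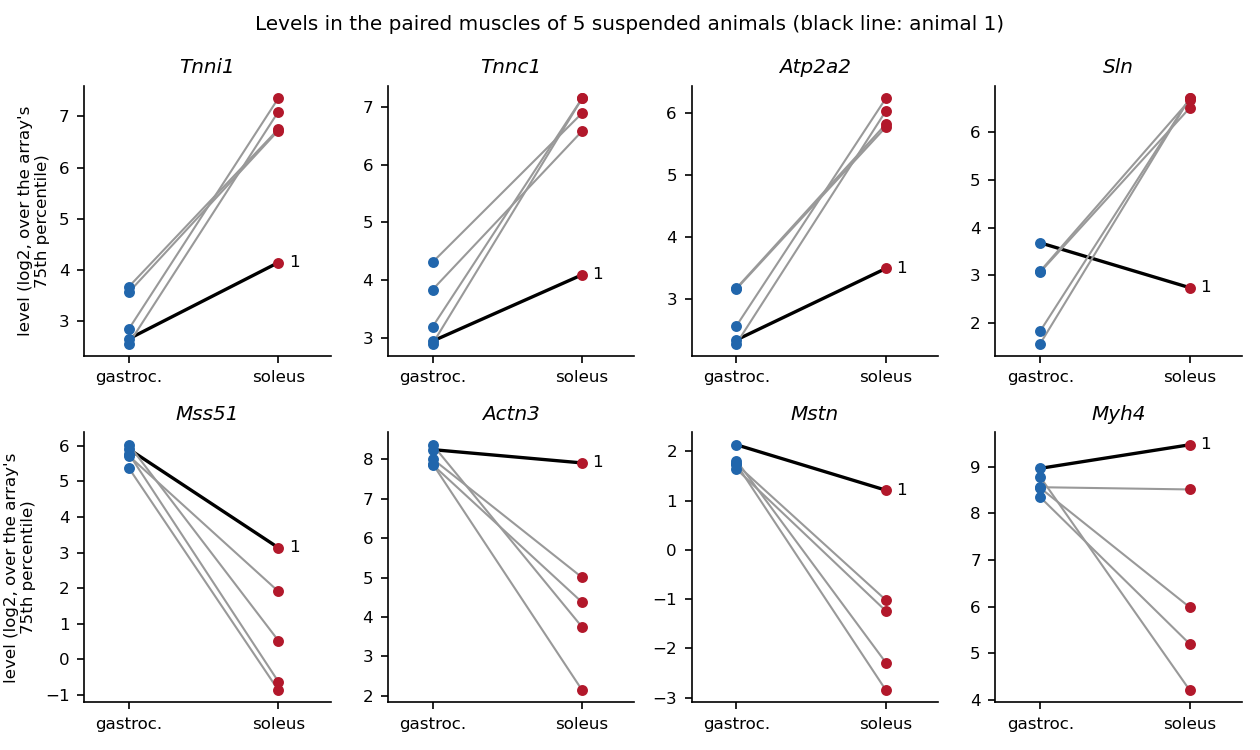
Levels (log2 over the array's 75th percentile) of 8 genes in gastrocnemius (blue) and soleus (red), with a line joining the muscles of each of the 5 suspended animals and a black line for animal 1. In all 8 panels the soleus point of animal 1 is the one nearest to the gastrocnemius points or beyond them; for Sln its line slopes down while the other 4 rise.

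The fast contractile genes were mixed. Of 16 tested, 5 were higher and 8 lower in soleus, against 12.3% and 16.1% of all genes. Without animal 1 the counts were 4 and 10, and the medians with and without it were -0.55 and -0.60. In controls 4 were higher and 8 lower. The median over the list in suspended animals 1 to 5 was 0.27, -0.71, -0.50, -0.34 and -0.89, so animal 1 alone lay above 0.

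Actn3, the alpha-actinin of fast fibres at the Z-disc, gave the widest gap on the list. Its soleus levels were 7.91, 2.14, 4.37, 5.00 and 3.74, and its gastrocnemius levels 8.25, 7.89, 7.87, 8.01 and 8.37. The soleus of animal 1 was within the gastrocnemius range and the other 4 were far below it. The difference was -3.44 ± 0.62 (adjusted p = 0.00232), and -4.22 ± 0.51 without animal 1, close to -4.32 in controls. Mybpc2, the fast myosin binding protein C, differed by -2.11 ± 0.64 (adjusted p = 0.0273). Its call was lost without animal 2 (-1.34), 4 (-2.26) or 5 (-1.97) and within scan day 2 (-2.08). Myoz1, a Z-disc protein of fast fibres, differed by -1.24 ± 0.26 (adjusted p = 0.00472), and by -0.99 (adjusted p = 0.098) within scan day 2.

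Myh4, the heavy chain of the fastest glycolytic fibres, varied most among the soleus arrays. In soleus its levels were 9.47, 5.20, 5.99, 8.51 and 4.21, while the gastrocnemius levels were 8.96, 8.35, 8.54, 8.56 and 8.78. The soleus of animal 1 was above every gastrocnemius array and that of animal 4 was among them. The difference of -1.96 ± 0.69 did not pass the test (adjusted p = 0.051), whereas without animal 1 it was -2.58 (adjusted p = 0.0198) and in controls -2.24 (adjusted p = 0.0279). It also passed without animal 4 (-2.44), with normexp (-1.98) and with quantile normalization (-2.22). It did not pass without animal 2 (-1.67, adjusted p = 0.155), 3 (-1.81, 0.124) or 5 (-1.31, 0.181), within scan day 2 (-1.67, 0.25) or as the mean of its probes (-1.77, 0.119).

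Other fast genes were higher in soleus. Tnnc2, the fast troponin C, had soleus levels of 9.45, 9.30, 9.40, 9.30 and 9.14 and gastrocnemius levels of 8.82, 8.23, 8.43, 8.46 and 8.61. The groups did not overlap, and the difference was 0.81 ± 0.11 (adjusted p = 0.000568) against 0.63 in controls. Myh2, the heavy chain of fast oxidative fibres, which are abundant in mouse soleus, differed by 0.46 ± 0.11 (adjusted p = 0.00889), but by 0.15 and not called under quantile normalization. Tnni2, the fast troponin I, differed by 0.44 (adjusted p = 0.0136), and lost its call without animal 2 or 3 (0.41 in each case) and under quantile normalization (0.03). Myh1, the heavy chain of fast IIx fibres, differed by 0.45 (adjusted p = 0.0417) at its brightest probe, but the other 2 of its 3 probes were lower in soleus and the call was lost without animal 1 (0.37), 2 (0.52), 3 (0.37) or 4 (0.49), with normexp (0.37) and with quantile normalization (0.17). The mean over its probes was -0.44.

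Calcium handling genes were lower in soleus more often than higher. Of 36 tested, 4 were higher and 13 lower, against 12.3% and 16.1% of all genes, and 3 and 16 without animal 1. The count of higher genes lies near the share of all genes. The higher genes were Sln, Atp2a2, Casq2 and Ryr3, and Ryr3, a calcium release channel, was called only with animal 1. Atp2a2, the calcium pump of slow fibres, had soleus levels of 3.49, 6.24, 5.83, 6.04 and 5.78 and gastrocnemius levels of 2.33, 2.56, 3.17, 2.27 and 3.16. All soleus arrays lay above all gastrocnemius arrays, with animal 1 nearest. The difference was 2.78 ± 0.31 (adjusted p = 0.000219), 3.18 without animal 1 and 3.49 in controls. Casq2, the calsequestrin of slow and cardiac muscle that stores calcium, differed by 1.78 ± 0.25.

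Sln, sarcolipin, a small peptide that restrains the calcium pump, was the gene whose difference moved most when animal 1 was left out. Its soleus levels were 2.74, 6.71, 6.50, 6.71 and 6.67, and its gastrocnemius levels 3.68, 1.57, 3.07, 1.84 and 3.09. In animal 1 the soleus was below its own gastrocnemius, with a difference of -0.94, while animals 2 to 5 had 5.13, 3.43, 4.87 and 3.58. The fitted difference was 3.22 ± 0.66 (adjusted p = 0.00449) and was 4.25 ± 0.34 (adjusted p = 7.88e-05) without animal 1, against 4.60 in controls. The mean over its 2 probes was 1.89.

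Among the lower genes was Pvalb, parvalbumin, the calcium buffer that speeds relaxation of fast fibres. In soleus its levels were 7.03, 1.64, 3.90, 5.09 and 3.19, against 7.31, 6.90, 6.99, 6.98 and 7.09 in gastrocnemius. Again only the soleus of animal 1 fell within the gastrocnemius range. The difference was -2.88 ± 0.61 (adjusted p = 0.00588), -3.54 without animal 1, and within scan day 2 it was -2.80 (adjusted p = 0.059). The control value of -3.36 rested on 4 animals, since the value of 1 animal was missing. Camk2a, a calcium-dependent kinase, differed by -2.26 ± 0.32, and the mean over its 2 probes was -1.42. Casq1, the fast calsequestrin, differed by -1.49 ± 0.22. Atp2a1, the fast calcium pump, differed by -0.94 ± 0.29 (adjusted p = 0.03). Its call was lost without animal 2 (-0.89), 3 (-0.95), 4 (-0.91) or 5 (-0.76) and within scan day 2 (-0.67), but it held without animal 1 (-1.21).

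Genes of fatty acid uptake and oxidation were higher in soleus almost throughout, and this depended little on animal 1. Of 39 tested, 31 were higher and 0 lower, against 12.3% and 16.1% of all genes, and 27 and 0 without animal 1. The median difference was 0.71, with 0.75 without animal 1 and 0.67 in controls, and the medians in animals 1 to 5 were 0.62, 0.93, 0.66, 0.73 and 0.59. Dgat2, which makes triglyceride, had soleus levels of 5.14, 6.08, 6.03, 6.51 and 6.79 and gastrocnemius levels of 3.41, 4.24, 4.53, 4.35 and 4.85. No arrays of the muscles overlapped, and every animal's difference lay between 1.51 and 2.16. The fitted difference was 1.84 ± 0.14 (adjusted p = 8.62e-05), 1.86 without animal 1 and 2.05 in controls. Plin5, a lipid droplet protein of oxidative tissue, differed by 1.62 ± 0.14 (adjusted p = 9.54e-05). Angptl4, a secreted inhibitor of lipoprotein lipase, differed by 1.50 ± 0.22 (adjusted p = 0.000873).

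Fat cell markers moved with this list. Of 10 adipocyte genes 8 were higher and 1 lower in soleus of suspended animals, against 12.3% and 16.1% of all genes. The summed level of the 10 was 7.04 to 8.49 in soleus and 6.39 to 6.66 in gastrocnemius. No marker was below background on all arrays of a group. Cidec, a lipid droplet protein of fat cells, had soleus levels of 0.67, 3.07, 3.56, 3.14 and 1.23 and gastrocnemius levels of 0.07, 0.50, -0.52, -0.69 and 0.32. Animals 1 and 5 had the lowest soleus levels, and the difference was 2.40 ± 0.47 (adjusted p = 0.00368). Plin1, which coats fat droplets of adipocytes, differed by 2.31 ± 0.47, and Pck1, which feeds glycerol synthesis in fat, by 2.29 ± 0.42. Ucp1, the uncoupling protein of brown fat, went the other way, at -1.45 ± 0.16. The part of fat cells in the fatty acid list was not tested. The marker list's median in animals 1 to 5 was 0.25, 0.95, 1.38, 1.06 and 0.43, more spread than that of the fatty acid list.

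Other oxidative genes differed by less. Their lists are read against the 12.3% of all genes called higher and the 16.1% called lower. Of 79 oxidative phosphorylation genes 25 were higher and 0 lower, 20 and 0 without animal 1, and 21 and 0 in controls. Their median was 0.20, and 0.03 under quantile normalization. Cox7c and Cox8a, subunits of cytochrome oxidase, differed by 0.82 ± 0.11 and 0.77 ± 0.12, and Uqcrfs1, the iron-sulphur subunit of the bc1 complex, by 0.71 ± 0.13. Of 21 citric acid cycle genes 4 were higher and 2 lower, near those shares, led by Idh2, the mitochondrial NADP isocitrate dehydrogenase, at 1.44 ± 0.24. Of 6 genes of ketone and lactate use 4 were higher and 1 lower. Among them Ldhb, the lactate dehydrogenase subunit of oxidative tissue, had soleus levels of 6.51, 7.39, 7.16, 7.36 and 7.14 and gastrocnemius levels of 5.52, 5.56, 5.86, 5.63 and 5.64. The groups did not overlap, and the difference was 1.47 ± 0.14 (adjusted p = 9.78e-05), or 1.64 in controls.

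Glycolysis and glycogen genes were lower in soleus. Of 36 tested, 3 were higher and 25 lower in suspended animals, against 12.3% and 16.1% of all genes. The counts were 3 and 26 without animal 1, and 5 and 24 in controls. The median difference was -0.75, and -0.92 without animal 1, with -0.15, -0.98, -0.70, -0.82 and -1.24 in animals 1 to 5. Slc16a3, the transporter that lets lactate out of glycolytic fibres, had soleus levels of 5.10, 1.98, 3.20, 3.35 and 1.80 against gastrocnemius levels of 6.03, 5.28, 5.16, 5.24 and 5.58. The soleus of animal 1 came closest to the gastrocnemius without reaching it. The difference was -2.37 ± 0.33 (adjusted p = 0.000629), and -2.25 in controls. Phka1, a muscle subunit of phosphorylase kinase, which starts glycogen breakdown, differed by -2.33 ± 0.34 and by -2.82 ± 0.22 without animal 1. Gpd2, the mitochondrial glycerol phosphate dehydrogenase, differed by -2.31 ± 0.28, and its 2 probes gave a mean of -1.51. Higher in soleus were Ppp1r1a, an inhibitor of protein phosphatase 1 (1.42 ± 0.16), Gbe1, the glycogen branching enzyme (0.72), and Gyg, glycogenin (0.47). The calls of Gbe1 within scan day 2 (0.58) and of Gyg there (0.40) were lost, and that of Gyg also without animal 2 (0.37), 3 (0.41), 4 (0.45) or 5 (0.47), without control animal 3 (0.47) and under quantile normalization (0.38).

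**Figure D2:**
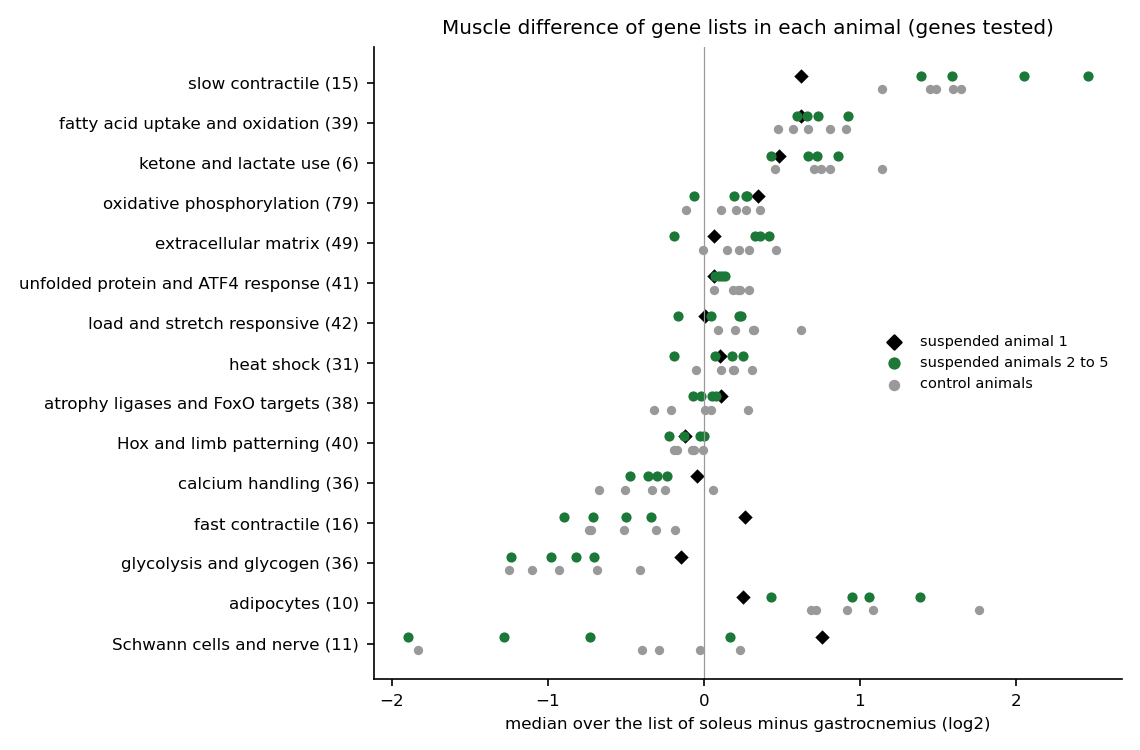
Median over each gene list of the soleus minus gastrocnemius difference (log2; x axis) in each suspended animal (green circles, with a black diamond for animal 1) and each control animal (grey); the number of genes tested stands beside each list name. Animal 1 lies nearer to 0 than the other suspended animals for slow contractile, calcium handling, glycolysis and adipocyte genes, lies on the other side of 0 for fast contractile genes, and lies among the others for fatty acid genes.

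Outside these lists the lowest difference was that of Mss51, a zinc finger protein found mainly in skeletal muscle. In soleus its levels were 3.14, -0.87, 0.53, 1.91 and -0.62 and in gastrocnemius 5.91, 5.38, 6.03, 5.72 and 5.78. Every soleus array was far below every gastrocnemius array. The difference was -4.95 ± 0.54 (adjusted p = 0.000193), a 30.8-fold lower signal in soleus, and -5.49 ± 0.51 without animal 1. In controls it was -5.18. Mstn, myostatin, the secreted factor that limits muscle growth, had soleus levels of 1.21, -2.85, -1.24, -1.02 and -2.29, against 2.13, 1.74, 1.64, 1.73 and 1.81 in gastrocnemius. All soleus arrays were lower, animal 1 by the least, and the difference was -3.05 ± 0.41 (adjusted p = 0.000492). It was -3.58 without animal 1 and -3.75 in controls.

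Cdh4, a cadherin, differed by -3.67 ± 0.63 at its brightest probe, which was above background on 3 of the 5 soleus arrays, so the size is uncertain. The mean over its 3 probes was -1.36, normexp gave -2.19, and among probes detected on all arrays the difference was -0.20 and not called. Genes of polyamine metabolism were also among the 12 lowest. Smox, spermine oxidase, differed by -2.62 ± 0.27, Amd1, S-adenosylmethionine decarboxylase, by -2.55 ± 0.35, and its near-identical copy Amd2 by -2.62 ± 0.32. Amd1 and Amd2 may share signal. Smox had soleus levels of 1.37, -0.93, -0.78, 0.07 and -0.98 and gastrocnemius levels of 2.93, 1.82, 1.82, 2.44 and 2.81, with no overlap.

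Sim1, a bHLH-PAS transcription factor, was above background on 4 of the 5 soleus arrays and on none of the gastrocnemius arrays of suspended animals. Against the detection limit its signal was at least 2.64-fold higher in soleus. The fit that gave its adjusted p (9.78e-05, and 0.053 within scan day 2) used gastrocnemius values at background, so no fitted size is given. Rab15, a small GTPase of membrane traffic, had soleus levels of 2.22, 3.79, 3.44, 3.94 and 3.79 and gastrocnemius levels of 1.23, 1.26, 1.74, 1.39 and 1.57. Its groups did not overlap, with a difference of 2.00 ± 0.24 (adjusted p = 0.000327) and 2.21 in controls.

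Of 38 transcription factors of fibre type and myogenesis, 7 were higher and 6 lower, and 11 and 5 in controls. These counts lie near the 12.3% and 16.1% of all genes, so single members are described. Sox6, a repressor of slow-fibre genes, had soleus levels of 2.25, 0.82, 1.18, 1.15 and 0.90 and gastrocnemius levels of 2.46, 2.36, 2.28, 2.35 and 2.58. It was lower in soleus in 5 of 5 animals, by -1.15 ± 0.23 (adjusted p = 0.00378), and the mean over its 5 probes was -0.52. Eya4, a partner of homeodomain factors in muscle, differed by -1.02 ± 0.22, but not within scan day 2 (-0.62, adjusted p = 0.095). Esrrb, an oestrogen-related receptor, was higher by 1.15 ± 0.14 (0.57 as the mean of its probes). Hdac4, a histone deacetylase that moves between cytoplasm and nucleus with muscle activity, was higher by 1.07 ± 0.14. Ppargc1a, a coactivator of mitochondrial genes, was not called, at -0.43 (95% interval -0.97 to 0.12).

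Of 40 Hox and limb patterning genes tested, 3 were higher and 11 lower in soleus, 4 and 9 without animal 1, and 6 and 10 in controls. All genes were also lower (16.1%) more often than higher (12.3%), and the list's median of -0.12 was 0.00 under quantile normalization, so no direction is read for the list. Hoxd11, which patterns the middle limb segment, was measured above background on 2 of 5 soleus arrays and on 5 of 5 gastrocnemius arrays. Its soleus levels were -4.49, -3.66, -4.32, -3.77 and -3.86, and its gastrocnemius levels -2.13, -1.83, -2.32, -2.16 and -1.57. All soleus values were the lower ones, but most of them were not above background, so the size of the difference is uncertain: it was -2.02 as fitted and -0.91 with normexp background correction. Hoxd10 differed by -0.94 ± 0.21. Tbx3, a T-box factor of limb muscle and margins, was higher by 0.98 ± 0.21 (adjusted p = 0.00509), with -0.05 in animal 1, 1.24 without it, and 0.85 (adjusted p = 0.062) within scan day 2.

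Genes that respond to load and stretch were split after suspension. Of 42 tested, 11 were higher and 8 lower in soleus, against 12.3% and 16.1% of all genes, with a median of 0.07. The lower count lies near the share of all genes. In controls 15 were higher and 7 lower, with a median of 0.42, and of all 25292 genes 2985 were higher and 4817 lower there. No gene was called for a dependence of its muscle difference on suspension in this fit. Ankrd2, a stretch-responsive ankyrin repeat protein of slow fibres, had soleus levels of 3.51, 4.49, 4.74, 4.47 and 4.05 and gastrocnemius levels of 2.84, 2.03, 2.62, 1.97 and 2.17. The groups did not overlap, and the difference was 1.93 ± 0.26 (adjusted p = 0.000492), against 1.00 in controls. Fhl2, a LIM protein of the sarcomere, differed by 1.85 ± 0.22 and in controls by 2.25. Csrp3, muscle LIM protein, a sensor at the Z-disc, differed by 1.50 ± 0.32 (adjusted p = 0.00576), with -0.10 in animal 1 and 1.90 without it. Within scan day 2 it was 1.30 (adjusted p = 0.093), and in controls it was not called, at 0.54.

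At the other end of this list was Nmrk2, a muscle kinase that makes NAD from nicotinamide riboside. Its soleus levels were 1.99, -0.53, 0.46, -0.37 and -1.39 and its gastrocnemius levels 3.29, 3.45, 1.86, 2.01 and 3.57. Only the soleus of animal 1 reached the gastrocnemius range, and the difference was -2.80 ± 0.46 (adjusted p = 0.00137). In controls, where both muscles had higher levels (means of 4.03 and 5.00), it was -0.97 (adjusted p = 0.125). Actc1, cardiac actin, differed by -2.02 ± 0.51 (adjusted p = 0.0139), but by -1.45 (adjusted p = 0.061) within scan day 2, and its control value rested on 4 animals. Nr4a1, an immediate early nuclear receptor that is not on the list, had soleus levels of 3.61, 1.10, 1.85, 2.63 and 1.77 and gastrocnemius levels of 4.67, 4.51, 4.49, 5.22 and 5.87. The groups did not overlap, with a difference of -2.76 ± 0.33 (adjusted p = 0.000306) and -1.06 in controls.

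Atrophy ligases and FoxO targets are read against the 12.3% of all genes called higher and the 16.1% called lower. Of 38 tested, 12 were higher and 7 lower in soleus, and the lower count lies near the share of all genes. The counts were 12 and 6 without animal 1, and 10 and 5 in controls, and the median was 0.01. Fbxo32, atrogin-1, a ubiquitin ligase that rises in wasting muscle, had soleus levels of 5.43, 5.16, 4.82, 4.88 and 5.36 and gastrocnemius levels of 4.68, 4.05, 3.99, 4.24 and 4.52. It was higher in soleus in 5 of 5 animals without overlap, by 0.83 ± 0.15 (adjusted p = 0.00207), and by 1.10 in controls, where the means were 2.96 and 1.86. Trim63, MuRF1, the other well-known ligase of atrophy, was not called, at 0.08 (95% interval -0.52 to 0.69) and -0.02 without animal 1. Fbxo31, an F-box ligase, differed by 0.83 ± 0.14 (adjusted p = 0.00174), and by 0.63 (adjusted p = 0.055) within scan day 2. Asb5, Asb15 and Fbxo40, other ligase components of muscle, were lower, at -1.29 ± 0.16, -1.09 ± 0.25 and -0.999 ± 0.23. None of these 3 was called within scan day 2 (-0.73, -0.88 and -0.73), and Asb15 was also not called without the animal block (-1.09).

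The stress lists are read against the 12.3% of all genes called higher and the 16.1% called lower. Of 31 heat shock genes 8 were higher and 3 lower, among them Hspb6, a small heat shock protein, at 0.96 ± 0.16, and Hsf2, a heat shock transcription factor, at -0.68 ± 0.13. Of 41 genes of the unfolded protein and ATF4 response 9 were higher and 1 lower. Psat1, which makes serine and is an ATF4 target, had soleus levels of -1.24, 0.63, 0.81, -0.09 and 0.48 and gastrocnemius levels of -2.17, -1.54, -1.11, -2.22 and -2.13. Only the soleus of animal 1 lay within the gastrocnemius range, and the difference was 1.96 ± 0.24 (adjusted p = 0.000342), against 0.48 (not called) in controls. Of 30 glucocorticoid receptor targets 9 were higher and 5 lower. Of 25 p53 and growth arrest genes 8 were higher and 3 lower. Gadd45a, a growth arrest gene of atrophying muscle on both of these lists, had soleus levels of 4.08, 3.86, 4.00, 2.99 and 5.09 and gastrocnemius levels of 2.84, 3.02, 2.92, 2.26 and 3.02. All but the soleus of animal 4 were above the gastrocnemius range, with a difference of 1.19 ± 0.18 (adjusted p = 0.000806), and controls gave -0.21 (not called).

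Synapse, signalling, matrix, clock and vessel lists are read against the 28.4% of all genes called in either direction, and their single members are described. Of 28 neuromuscular junction genes 5 were higher and 5 lower, with Chrna1, the alpha subunit of the acetylcholine receptor, at 1.07 ± 0.17 and Chrnd, its delta subunit, at -0.78 ± 0.12. Ache, acetylcholinesterase, differed by -0.96 ± 0.21, and by -0.63 with normexp. Of 40 growth factor and myokine genes 4 were higher and 7 lower, with Fndc5, the precursor of irisin, at 1.01 ± 0.11 and Vegfb, a vascular growth factor, at 1.08 ± 0.15 (0.55 as the mean of its 2 probes). Of 49 matrix genes 9 were higher and 4 lower, and Timp2, an inhibitor of matrix proteases, differed by 0.72 ± 0.13. Of 21 clock genes 3 were higher and 1 lower, and of 27 angiogenesis and hypoxia genes 8 were higher and 2 lower. Nos1, the neuronal nitric oxide synthase of the fibre membrane, was among the lower ones, at -1.57 ± 0.24.

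Markers of other cell types are read against the same 12.3% called higher and 16.1% called lower. Of 11 Schwann cell and nerve markers 1 was higher and 1 lower, but without animal 1 the counts were 1 and 6. The list's median in suspended animals 1 to 5 was 0.76, -1.28, -1.90, 0.17 and -0.73, and its summed level was 4.65 to 6.30 in soleus and 5.12 to 7.25 in gastrocnemius. Mbp, the myelin basic protein, had soleus levels of 3.32, 0.17, 0.58, 1.71 and 0.51 and gastrocnemius levels of 1.64, 3.62, 4.37, 1.54 and 2.71, so that animals 1 and 4 went against the other 3. Its difference of -1.52 was not called, and -2.32 without animal 1 was (adjusted p = 0.0282), but 1 of its 3 probes had the opposite sign and their mean was -0.40. Mal, another myelin protein, moved in the same way, from -1.25 to -1.88 (adjusted p = 0.0402). The part of nerve in other differences was not tested.

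Of 11 endothelial markers 3 were higher and 0 lower, of 11 smooth muscle and pericyte markers 4 and 0, of 11 tendon markers 3 and 0, and of 11 fibroblast markers 1 and 0 (4 and 0 without animal 1). None of 11 macrophage markers was called with animal 1, and 2 were higher without it. Of 10 lymphocyte markers 0 were higher and 3 lower, of 7 mast cell markers 3 and 1, of 8 satellite cell markers 2 and 0, and of 5 red blood cell markers 0 and 1. Of 12 general muscle fibre genes 5 were higher and 2 lower. With so few markers a list, these counts are a description, beside the 12.3% of all genes called higher and the 16.1% called lower. The summed level of the muscle fibre genes was 10.91 to 11.26 in soleus and 10.60 to 10.85 in gastrocnemius.

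The arrays were also placed against the control muscles over the 1101 genes that differed at least 2-fold in controls, with 0 at the mean of the control gastrocnemius and 1 at the mean of the control soleus. These genes were chosen by their control difference, but in the fit to the arrays of both conditions. The suspended arrays thus entered the choice through the variance, the probe filter and the brightest probe. Control arrays lie at 0 and 1 on average by construction. A choice by large control differences can also overstate them, which by itself would put suspended soleus places and ratios below 1. How far it did so was not tested. The soleus arrays of suspended animals 1 to 5 had a median place of 0.645, 0.930, 0.927, 0.913 and 0.653. Their gastrocnemius arrays lay between -0.080 and 0.059. Animals 1 and 5 were thus the lowest of the soleus arrays, and the other 3 lay within the control soleus range of 0.908 to 1.11. That range comes from the same control arrays by which the genes were chosen. The difference between an animal's muscles was 0.493, 1.00, 0.844, 0.927 and 0.704 of that in controls, taken as the median over these genes.

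**Figure D3:**
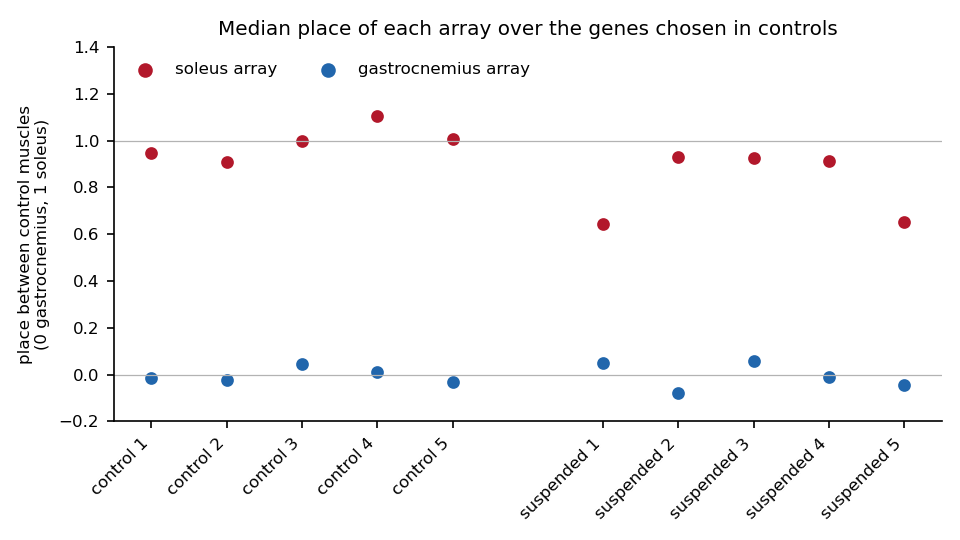
Median place of each array over the 1101 genes that differed at least 2-fold in control animals. Soleus (red) and gastrocnemius (blue) are shown for the 5 control and 5 suspended animals. On the y axis 0 is the mean control gastrocnemius and 1 the mean control soleus. The soleus arrays of suspended animals 1 and 5 lie at 0.645 and 0.653, below the other soleus arrays, while all gastrocnemius arrays lie near 0.

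Animals 1 and 5 differed from each other in the fibre genes. Tnni1, Tnnc1, Atp2a2 and Sln in the soleus of animal 5 lay with those of animals 2 to 4, whereas in animal 1 they were lower by more than the spread of the other 4. For Myh4 the soleus of animal 5 had the lowest level of the 5 and that of animal 1 the highest. The genes whose difference moved most without animal 1 were Sln, Mbp, Actn3, Cdh4, Pvalb and Mal. Of these, Sln, Actn3, Cdh4 and Pvalb were called in both fits, and leaving animal 1 out made each larger.

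Most muscle differences called in controls had the same direction in suspended animals. Of the 7802 genes called in controls (30.8% of those tested), 7585, or 97.2%, had the same sign in suspended animals. In both conditions the muscles lay on different slides, so slide and muscle cannot be told apart in this agreement either. Both conditions called 5009 genes in the same direction, 1852 higher and 3157 lower in soleus, which is 69.8% of the calls in suspended animals and 64.2% of those in controls. Without suspended animal 1 the count was 4785. Of the 1101 genes with a called difference of at least 2-fold in controls, 935 were called in the same direction in suspended animals and 914 without animal 1. Across genes, which are not independent replicates, Pearson's r of the differences was 0.829, and 0.826 without animal 1. With scan day as a block the control calls fell to 1374 and the shared calls to 1137, since all control gastrocnemius arrays were scanned on day 1 and all control soleus arrays on day 2. With scaling to the spike-in probes 2672 genes were shared. The spike-in level over the 75th percentile was 1.75 ± 0.201 (SD, n = 5) in soleus and 1.77 ± 0.134 in gastrocnemius of suspended animals, and 1.49 ± 0.044 and 2.55 ± 0.078 in controls. That scaling moved the median control difference from -0.05 to 1.00 and the median of suspended animals from -0.03 to -0.01.

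**Figure D4:**
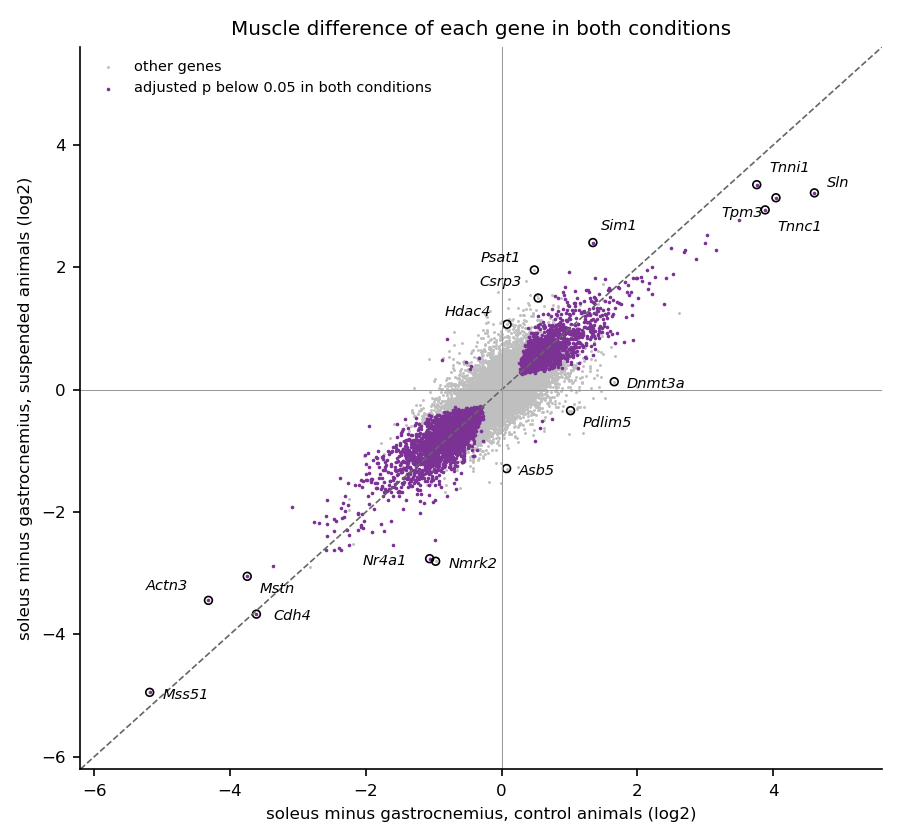
Soleus minus gastrocnemius difference of each gene (log2) in control animals (x axis) and suspended animals (y axis), with the 25292 genes tested in grey and those with adjusted p below 0.05 in both conditions in purple; the dashed line marks equal differences and circles mark named genes. Fibre genes such as Tnni1 (3.35 suspended, 3.76 control) and Mss51 (-4.95 and -5.18) lie near the line, while Nmrk2 (-2.80 and -0.97), Hdac4 (1.07 and 0.08) and Dnmt3a (0.13 and 1.66) lie away from it.

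Whether a muscle difference itself depended on suspension was tested as the difference of the 2 differences. No gene was called by limma (0 of 25292, 0%), while 1459 had an unadjusted p below 0.05, and the lowest adjusted p was 0.0503. Without suspended animal 1 there was 1 call (0.00395%), the unnamed transcript D630039A03Rik, with a muscle difference of 1.28 in suspended animals and -0.17 in controls. Half-widths of the 95% interval, taken gene by gene without adjustment, had a median of 0.452. The adjusted test asked for more, and the larger dependences given below did not pass it in this fit. Dependences well above 0.452 could therefore also go undetected with these animals. A gene called in 1 condition and not in the other, of which there were 2153 for suspension and 2783 for control, was therefore not shown to differ between them. Opposite directions were called in the 2 conditions for 10 genes, and for 8 without animal 1.

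The genes with the lowest p in this test are described next; they were chosen after their values were seen, and none passed the threshold in the fit described so far. Some passed in other fits of all 20 arrays, but with scan day as a block 0 genes passed. All control gastrocnemius arrays were scanned on day 1 and all control soleus arrays on day 2. In controls muscle and scan day thus cannot be told apart. Dnmt3a passed with normexp (adjusted p = 0.00998), with quantile normalization (0.0222) and without the animal block (0.00102). Gprc5c, Mettl21c and Pdlim5 (0.0218 each), Asb5 (0.0244) and Foxo6 (0.0281) passed with normexp. Nlrc3 passed without the animal block (0.0409). With slide as a random block Dnmt3a (0.00055), Nlrc3 (0.0236), Gbf1 (0.0384), Gprc5c and Pdlim5 (0.049 each) passed. Among probes detected on all arrays Dnmt3a (0.0168), Gprc5c, Mettl21c and Nlrc3 (0.0258 each) passed. With normexp and without suspended animal 1, Nr4a1 and Psat1 passed as well (0.0205 each). Dnmt3a also passed without suspended animal 2 (0.00785). Dnmt3a, a DNA methyltransferase, had levels of 1.91, 1.84, 1.88, 1.57 and 1.81 in control soleus and 0.11, 0.19, 0.14, 0.23 and 0.05 in control gastrocnemius. After suspension the levels were 1.21, 1.80, 1.36, 1.57 and 1.19 in soleus and 1.07, 1.10, 1.31, 1.68 and 1.31 in gastrocnemius. The muscles were fully apart in controls and overlapped after suspension, with the gastrocnemius higher than in controls. The muscle differences were 1.66 and 0.13, and their difference was -1.53 (95% interval -1.92 to -1.13, adjusted p = 0.0503). On the slide that held gastrocnemius of both conditions, suspended animal 1 had 1.07 and control animals 3 to 5 had 0.14, 0.23 and 0.05. On the slide that held soleus of both conditions, control animal 5 had 1.81 and suspended animals 1 to 3 had 1.21, 1.80 and 1.36. One of its 3 probes had the opposite sign in suspended animals.

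Foxo6, a forkhead transcription factor, differed by 1.12 ± 0.12 in suspended animals and by 0.00 in controls, and its difference of differences was 1.12 (adjusted p = 0.127). Its levels in suspended animals were 3.14, 3.41, 3.85, 3.94 and 3.45 in soleus and 2.17, 2.56, 2.78, 2.77 and 1.91 in gastrocnemius, without overlap. Hdac4 had suspended soleus levels of 3.46, 3.14, 3.36, 2.87 and 3.71 and gastrocnemius levels of 2.51, 2.31, 2.30, 1.82 and 2.27, against means of 1.03 and 0.95 in controls. Both muscles were above their controls after suspension and the soleus more so, with a difference of differences of 0.99 (unadjusted p = 0.000248, adjusted p = 0.262). Gadd45a gave 1.41 (adjusted p = 0.172) and Psat1 1.47 (adjusted p = 0.446).

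Asb5 was alike in the control muscles, with means of 3.48 and 3.41, and lower in the soleus after suspension, where its levels were 3.50, 2.16, 1.94, 1.87 and 1.36. The gastrocnemius levels were 4.22, 3.43, 3.19, 3.09 and 3.36, a range that only the soleus of animal 1 reached, and the difference of differences was -1.36 (adjusted p = 0.127). Pdlim5, a Z-disc adaptor, gave -1.36 (adjusted p = 0.127) and Rrad, a small GTPase that binds calcium channels, -1.49 (adjusted p = 0.127). Nlrc3, an innate immune regulator, gave -1.38 (adjusted p = 0.067), with a control difference of 1.43 and a suspended one of 0.04. Gbf1, a Golgi exchange factor, gave -1.01 (adjusted p = 0.127). Of the larger fibre and metabolic differences, Nr4a1 gave -1.70 (95% interval -2.72 to -0.68, adjusted p = 0.596) and Nmrk2 -1.83 (-3.24 to -0.43, adjusted p = 0.74). For Tnni1 it was -0.41 (95% interval -1.46 to 0.65) and for Mss51 0.24 (-1.41 to 1.88), and both intervals span 0.

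**Figure D5:**
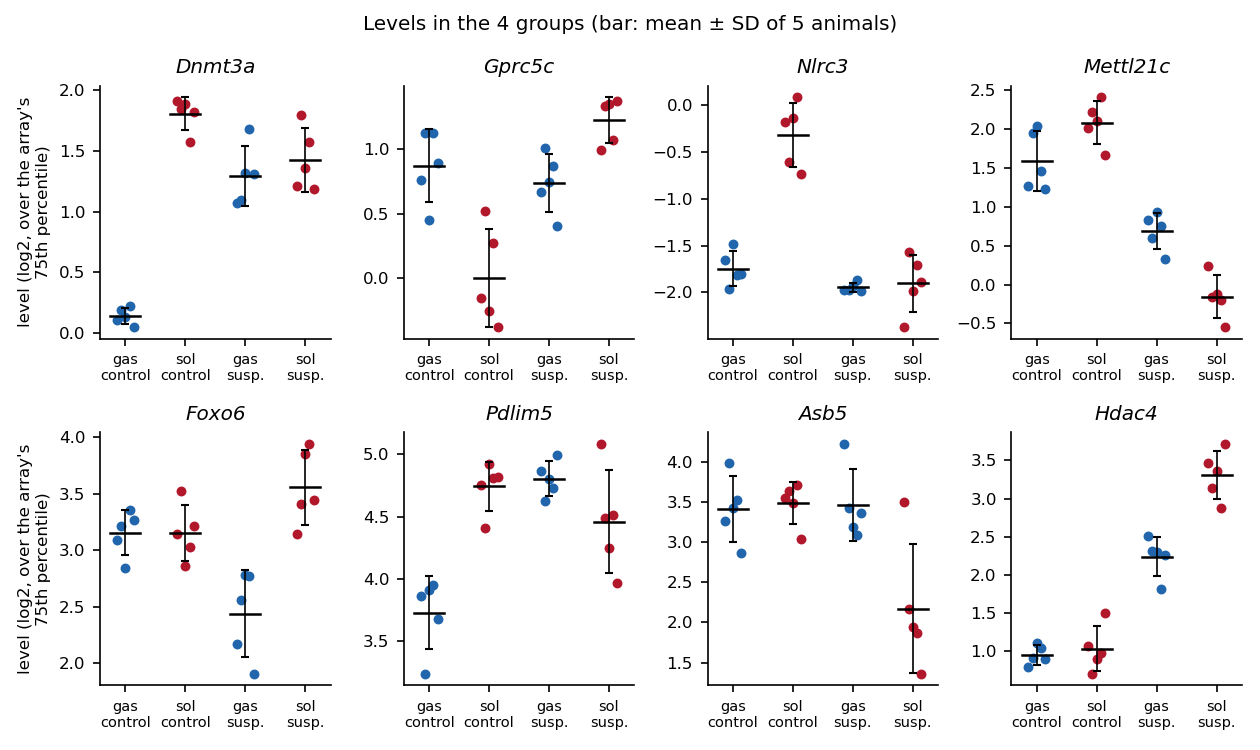
Levels (log2 over the array's 75th percentile) of 8 genes in gastrocnemius (gas, blue) and soleus (sol, red) of control and suspended (susp.) animals, with 5 points a group and the mean ± SD in black. The 7 genes other than Hdac4 are among those with the lowest p for a dependence of the muscle difference on suspension and were chosen after seeing the values; Dnmt3a is apart between the control muscles (1.66) and overlaps after suspension (0.13), and Hdac4 is alike in the control muscles (0.08) and apart after suspension (1.07).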

How the data were processed

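Total RNA of each muscle was labelled with Cy3 and hybridised to 1 Agilent one-colour mouse array. Per the file headers, the authors scanned and quantified the arrays with Agilent Feature Extraction 9.1.3.1, which subtracted background and detrended the spots, and the deposited intensity values were not scaled between arrays. The authors' deposited table of processed values was within 0.497% of these intensities on every array (column medians 141 to 311), so it was linear and uncentred. No source used here names the genome build of the probe design.

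From the deposited intensities, each value was divided by its array's 75th percentile and log2 was taken, control spots and outlier spots were left out, spots of a probe were averaged, and probes well above background on at least 4 of 5 arrays of a group were kept (37373 probes, 25292 genes, each by its brightest probe). Of 41174 probes 22951 were named by accession, 6659 by symbol and 3109 by an older symbol through RefSeq, and 8455 kept the file's name. limma 3.58.1 in R 4.3.3 was fitted to all 20 arrays with the animal as a block. The labels give both muscles of a number to 1 animal; the deviations of an animal's muscles correlated at -0.080 to 0.170 in suspended animals. The fit was tested on simulated data. With 5 animals a group, their number limits the precision.

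Named genes were the 12 highest and 12 lowest differences among genes called with and without animal 1 and of 1 sign in all 5 suspended animals, 26 fixed genes, the 6 whose difference moved most without animal 1, up to 3 called members at each end of each list, and, added after seeing values, genes with the lowest p for dependence on suspension or with opposite calls. Members and the 33 lists (779 genes, 764 tested) were chosen with earlier results of these data known. Alternatives were other scalings and background corrections, filters, probe rules, blocks, thresholds and left-out animals. The comparisons within scan day 2 were added after seeing the data. So were 2 fits without suspended animal 1, on the suspended arrays alone and with scan day as a block.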

Additional observations from a re-analysis of the deposited data

Results flagged for a closer look

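Sarcolipin (Sln) in suspended animal 1 lay far from the other 4 animals: its soleus minus gastrocnemius difference was -0.938, against 3.43 to 5.13 in the others. By Dixon's test (critical value 0.71) it was the only outlier in 93 groups of 5 differences examined. Chance alone gives an outlier in about 1 in 20 such groups, so 1 in 93 is no more than chance gives.

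For 4 of 59 named genes every suspended animal had 1 sign of the muscle difference and every control animal the opposite one. Some of these genes were named because of such values, so the pattern is a description; it was present in 30 of the 25108 genes with values in all 10 animals. The difference between conditions was 1.36 for Gprc5c, an orphan receptor, -1.33 for Mettl21c, a methyltransferase of muscle, 0.845 for Tspan33, a tetraspanin, and 0.81 for Nr6a1, an orphan nuclear receptor. The test of these differences by limma gave adjusted p = 0.067, 0.067, 0.127 and 0.262, so none passed. Gprc5c was higher in soleus of suspended animals by 0.20 to 0.97 and lower in that of controls by -1.27 to -0.61. Mettl21c was lower in soleus of suspended animals by -1.05 to -0.58, and in controls the difference was 0.06 to 0.94. The probes of Gprc5c and of Tspan33 disagreed, with a mean over probes of 0.17 and 0.14 in suspended animals. The call of Gprc5c in suspended animals was lost without animal 3 (0.46) or 5 (0.36) and within scan day 2 (0.47), that of Tspan33 within scan day 2 (0.30), and that of Nr6a1 without animals 1 (0.30), 2 (0.29), 4 (0.39) or 5 (0.33).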

How the results depend on the processing

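The count of muscle differences in suspended animals ranged from 4447 to 7747 when 1 animal was left out, was 922 with a 2-fold minimum and 3352 at an adjusted p below 0.01, and stayed within 1.5 times of 7172 under the other alternatives run (7825 without the animal block, 6645 on the suspended arrays alone). Without animal 1 it was 5047 to 8066 under the alternatives run, and the replicate block changed no count by over 1.5 times except that for dependence on suspension. The control count was 22622 with spike-in scaling, 1374 with scan day as a block, 1101 with a 2-fold minimum and 3940 at 0.01. The shared count was 2672, 1137, 558 and 2203 in the same settings. Calls for dependence on suspension were 0 to 1 with 1 animal left out, 2 without the animal block (Dnmt3a and Nlrc3), 6 with normexp or with slide as a random block, 1 with quantile normalization, 1 with the percentile over detected probes, 4 among probes detected on all arrays and 23471 with spike-in scaling; the cause was not tested. Directions of small differences turned as follows. With the mean of probes, Myh1 gave -0.436, Myl1 -0.219, Kdr -0.0959, Pecam1 -0.0642, Col1a1 -0.0345, Adgre1 -0.306 and Gbf1 -0.0162. With 1 suspended animal left out, Trim63 ranged from -0.0246 to 0.259, Dnmt3a from -0.0120 to 0.193, Nlrc3 from -0.0467 to 0.153 and Rrad from -0.116 to 0.111. Trim63 gave -0.0246 without animal 1 and -0.0520 under quantile normalization. Without animal 2, Dnmt3a gave -0.0120 and Nlrc3 -0.0467; Nlrc3 also gave -0.0190 with the percentile over detected probes and -0.0343 within scan day. Rrad gave 0.111 and 0.00489 without animals 1 and 5, 0.0351 with normexp, 0.105 with quantile normalization and 0.0582 within scan day. Of the values of 174 named genes, 3652 were unchanged in direction and call, 310 lost the call, 15 gained it and 20 turned. The medians of the Hox list became 0.01 among probes detected on all arrays and 0.00 under quantile normalization. The slides bound the muscle comparison, and dim probes such as those of Cdh4, Hoxd11 and Sim1 are limited by background.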
